A study of Caenorhabditis briggsae with 12 samples.

Results

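The 119 genes described here had a higher share of the reads in every library of days 6 and 9 of adulthood than in any library of days 1 and 3, in whole hermaphrodites of the nematode Caenorhabditis briggsae. They were chosen from the 23169 genes of the deposited count table by their levels in CPM, which is each gene's count divided by the total count of its library and scaled to 1000000 counts. A member had a lowest level over the 6 libraries of days 6 and 9 of at least 1 CPM and at least 1.25 times its highest level over the 6 libraries of days 1 and 3. Its lowest day 9 level was under 2 times its highest day 6 level, its day 9 mean was at least 0.67 of its day 6 mean, and its mean over the 12 libraries was under 1000 CPM. The values of all 12 libraries chose the members, so the difference between days 6 and 9 and days 1 and 3 is given below as a description, with no test.

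The animals were of AF16, the wild-type laboratory strain and grew at 20 °C with E. coli OP50 as food. Each of the 4 groups held 3 libraries, and the labels give age as their one difference: day 1, day 3, day 6 or day 9 of adulthood. They lived as synchronised populations from which larvae were washed off every second day, and the labels do not state how many animals made up a library. A C. briggsae hermaphrodite fertilises its own oocytes with sperm that it made before adulthood, and egg laying is concentrated early in adult life. A whole-animal library therefore mixes body tissues with germ line and with embryos held in the uterus, and in such bulk samples fewer cells of a type and less RNA per cell cannot be told apart. The file gives WormBase identifiers with no gene names, and the reference table of 22727 genes matched 0 of them, so no function or pathway is assigned to any member and marker genes of tissues were not analysed here.

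The library totals ran from 14276540 counts in day 9 replicate 1 to 33732477 in day 1 replicate 1. A gene with 0 counts could have a true level as high as 0.210 CPM in the former and 0.0889 CPM in the latter, with 3 counts as each library's limit. Same-day libraries differed beyond sampling noise in each pair, with a chi-square of 4.23 to 288 per degree of freedom, so each was used as its own sample. The highest of these values, 239 and 288, were those of day 9 replicate 1 against replicates 2 and 3, while replicates 2 and 3 of day 9 gave 15.3. Day 6 replicate 3 differed from the other day 6 libraries at 29.0 and 32.0, against 4.23 between those. The main counts and medians that rest on these libraries are given with and without them.

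Together the members held a small part of the RNA, and their part was higher from day 6. Their summed share of all counts was 0.195%, 0.203% and 0.202% in the day 1 libraries and 0.248%, 0.247% and 0.223% in those of day 3. At day 6 it was 0.547%, 0.568% and 0.577%, and at day 9 0.877%, 0.511% and 0.503%. Day 9 replicate 1 stood above all other libraries, and replicates 2 and 3 of day 9 lay just below day 6. Averaged by day, the share was 0.200% ± 0.0041, 0.240% ± 0.014, 0.564% ± 0.016 and 0.630% ± 0.214 in order of age (SD over 3 libraries). Without day 9 replicate 1 the day 9 mean was 0.507%, below that of day 6, and without day 6 replicate 3 the day 6 mean was 0.557%.

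**Figure D1:**
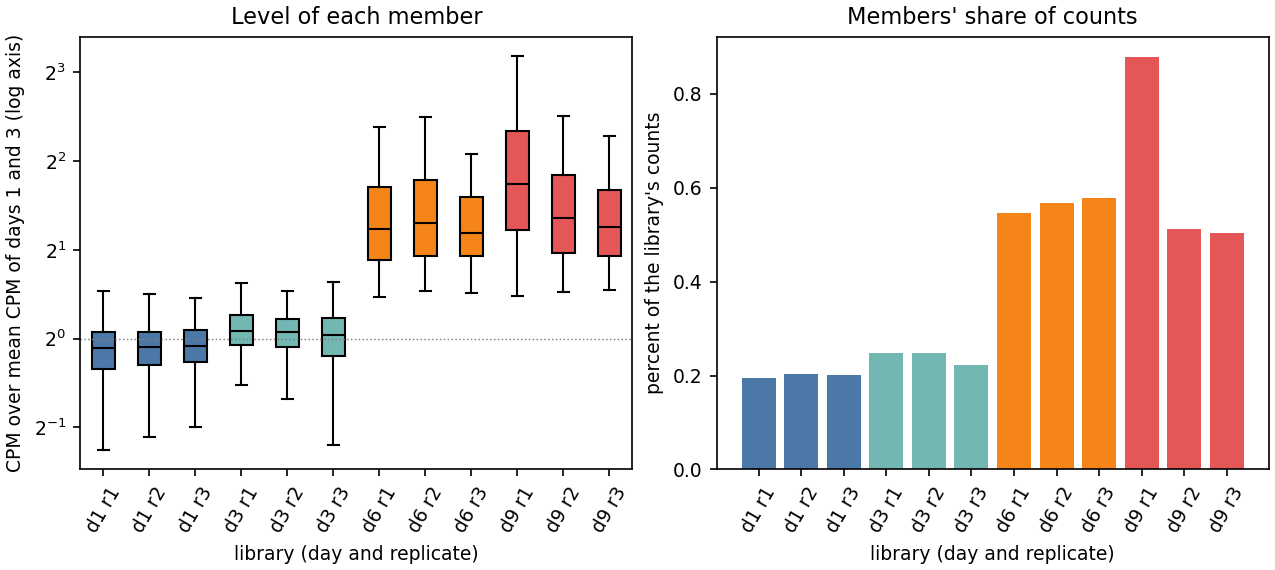
Left, CPM of the 119 members in each library over their own mean CPM of days 1 and 3, on a log axis (line, median; box, quartiles; whiskers, up to 1.5 box lengths; farther points not drawn). Right, the members' summed share of each library's counts in percent. The day 6 medians lie at 2.28 to 2.47 times the mean of days 1 and 3, and day 9 replicate 1 is highest in both panels at 3.34 times and 0.877%.

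Single members were mostly of middling abundance and rose by a moderate factor. Their mean level over the 12 libraries had a median of 11.8 CPM, from 0.912 to 538 CPM, beside a median of 9.70 CPM over the 15788 genes that passed the low-count filter, and 7 members exceeded 100 CPM. All 119 members passed that filter. The mean of days 6 and 9 was 1.59 to 29.8 times the mean of days 1 and 3, with a median of 2.69 times. This median was 2.71 without day 6 replicate 3 and 2.40 without day 9 replicate 1. The ratio was under 2 times in 15 members, from 2 to under 4 times in 78, from 4 to under 8 times in 15 and 8 times or more in 11.

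The gap between the groups, the lowest level of days 6 and 9 over the highest of days 1 and 3, was narrower than these means. It had a median of 1.46 and a highest value of 5.60, and it was at least 1.5 in 54 members and at least 2 in 18. Many members lay close to the limit of 1.25. The 3 nearest inside it had gaps of 1.253, 1.259 and 1.261, and the 3 nearest outside it that met the other limits had gaps of 1.249, 1.247 and 1.245. In all, 14 members had gaps below 1.3, and 30 genes that met the other limits had gaps from 1.2 to the limit.

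**Figure D2:**
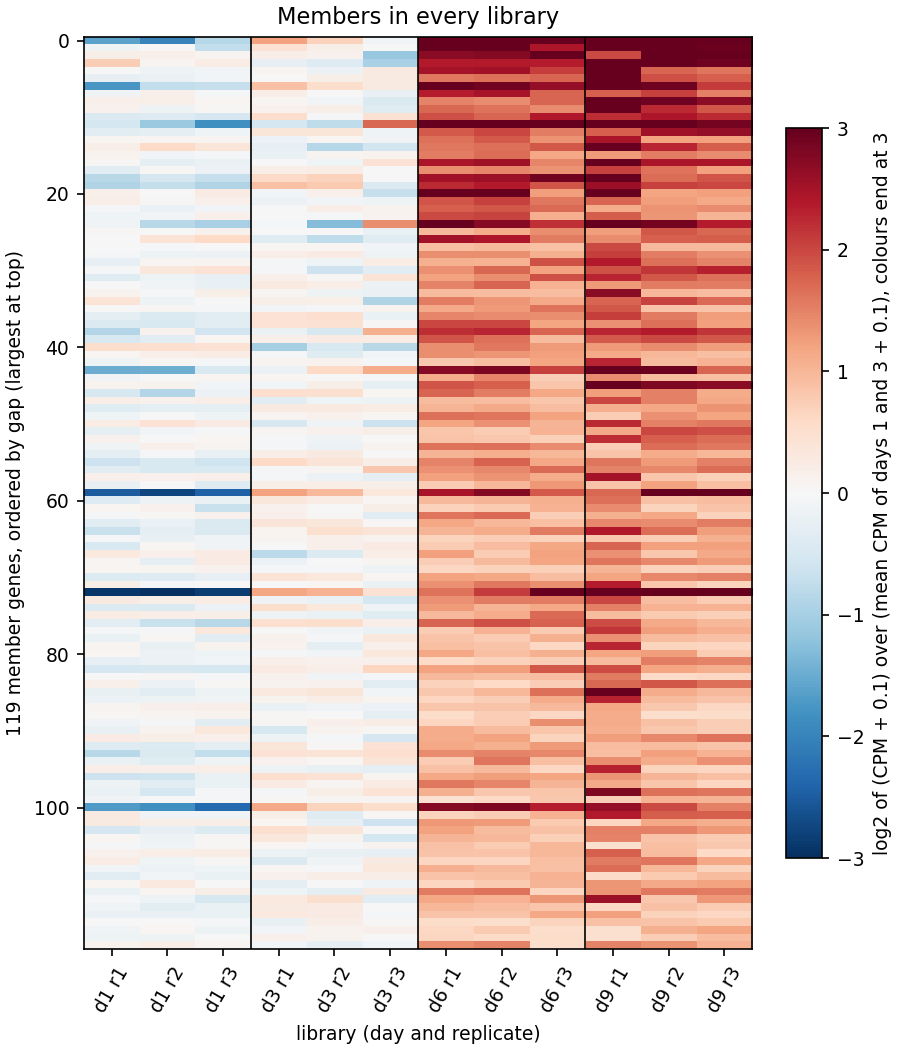
Each row is 1 of the 119 members, ordered by gap from the largest at the top, and each column is 1 library. The colour gives the log2 of CPM over the member's mean CPM of days 1 and 3, with 0.1 CPM added to both, and ends at 3 in either direction. Libraries of days 1 and 3 are near 0 or below in most rows, and the darkest red column is day 9 replicate 1, the highest of the 12 libraries for 62 members.

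The members with the largest gap among those with at least 10 CPM in every library of days 6 and 9 were WBGene00036987 and WBGene00034139. WBGene00036987 stood at 0.415, 0.295 and 0.774 CPM at day 1 and at 3.52, 2.46 and 1.38 CPM at day 3. It stood at 27.5, 25.9 and 19.7 CPM at day 6 and at 124.8, 38.5 and 27.3 CPM at day 9. Its lowest later library was 5.60 times its highest earlier library, and its level had also been higher at day 3 than at day 1 in each library.

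WBGene00034139 stood at 5.25, 5.14 and 4.88 CPM at day 1 and at 5.33, 5.06 and 2.04 CPM at day 3. It stood at 30.5, 31.8 and 55.9 CPM at day 6 and at 18.5, 50.8 and 54.6 CPM at day 9. Days 1 and 3 overlapped for this gene, and day 9 replicate 1 was here the lowest of the later libraries, with a gap of 3.47.

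The 2 members with the highest mean level were WBGene00024435 and WBGene00025498. WBGene00025498 stood at 192, 218 and 207 CPM at day 1, 227, 229 and 206 CPM at day 3, 374, 403 and 488 CPM at day 6 and 1046, 411 and 436 CPM at day 9. Its levels of days 1 and 3 overlapped and its later levels lay wholly above them. Replicates 2 and 3 of day 9 were within the range of day 6, and replicate 1 was over 2 times as high. WBGene00024435 stood at 87.8, 111 and 97.7 CPM at day 1, 235, 253 and 157 CPM at day 3, 906, 932 and 1172 CPM at day 6 and 1421, 504 and 577 CPM at day 9. For this gene the libraries of day 9 lay on both sides of those of day 6.

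**Figure D3:**
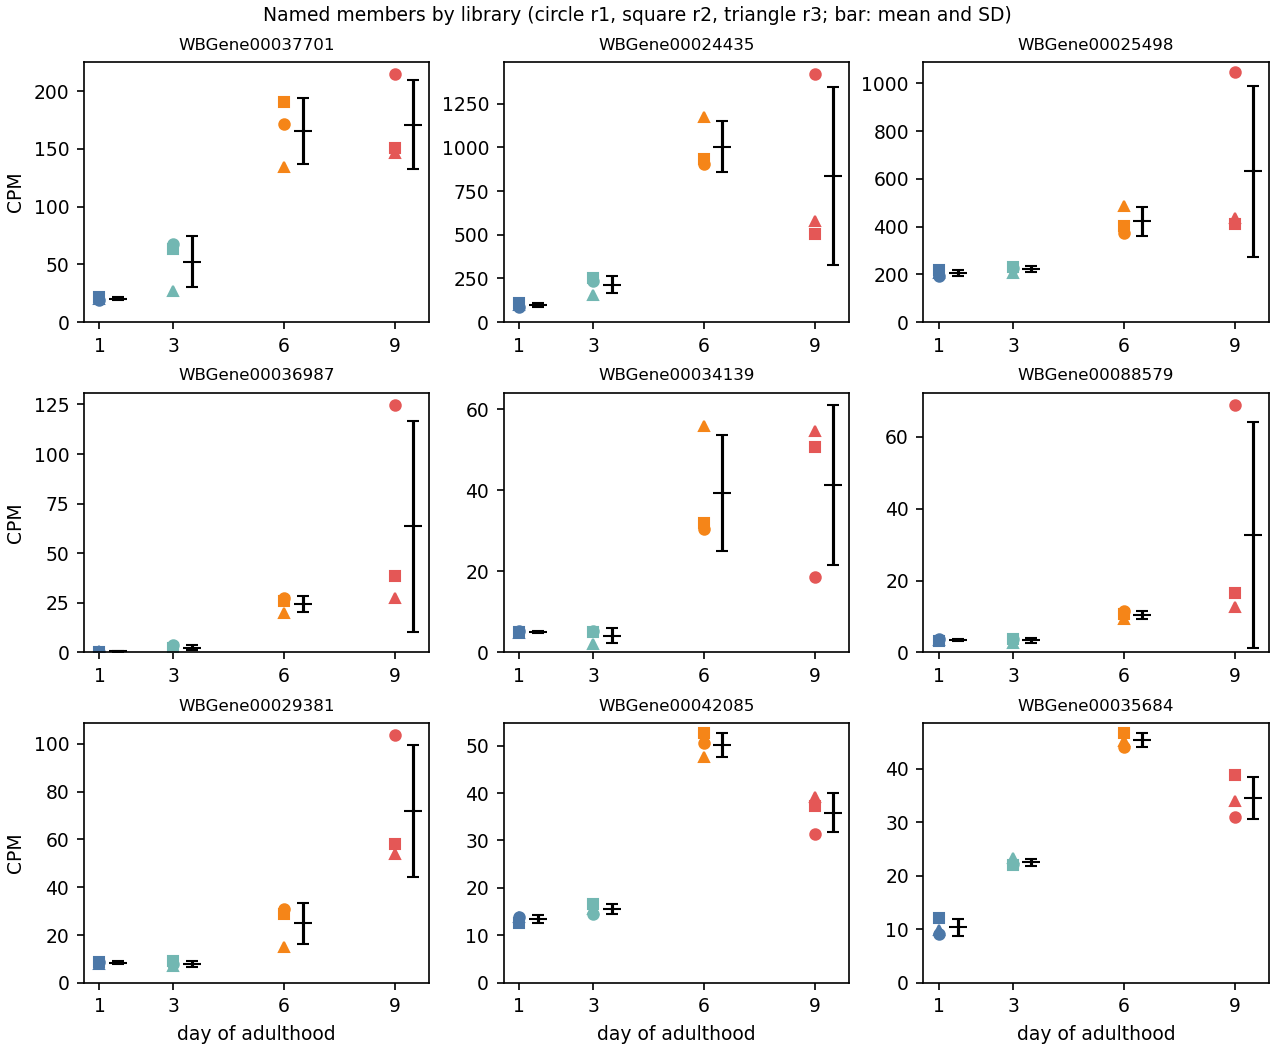
CPM of the 9 members named by a fixed rule, by day of adulthood (x axis, day; y axis, CPM from 0). Each point is a library (circle, replicate 1; square, replicate 2; triangle, replicate 3), and the black bar beside each day gives the mean and SD of its 3 libraries. Day 9 replicate 1 is the highest library for 6 of them, among them WBGene00025498 at 1046 CPM, and the lowest of the later libraries for WBGene00034139, WBGene00042085 and WBGene00035684.

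The counts were also fitted over all 15788 genes with edgeR's quasi-likelihood test, with Benjamini-Hochberg adjustment and a threshold of 0.05. Calls between days 6 and 9 and days 1 and 3, or between days 6 and 3, come from the values that chose the members, so their counts describe the members and support nothing. For days 6 and 9 together, 118 of the 119 passed as higher, beside 5.56% of all genes, with a median log2 fold change of 1.28. Over all genes tested, 3.36% had each library of days 6 and 9 above each of days 1 and 3, a condition the members met by the rule. The exception, singled out after its values were seen, was WBGene00031892. It stood at 3.66 to 5.06 CPM at days 1 and 3, at 8.58, 8.33 and 6.95 CPM at day 6 and at 22.5, 7.28 and 7.17 CPM at day 9. With any 1 of the day 9 libraries left out, all 119 passed. For day 6 against day 3, 55 members passed as higher, beside 1.43% of all genes. With only these 2 days in the fit 113 passed, beside 7.55% of all genes, and with no day 9 library, tried after the data had been seen, 117 passed, beside 7.59%. DESeq2 gave 89, beside 3.53%. Leaving out replicates 1, 2 and 3 of day 3 gave 18, 23 and 27, beside 0.514%, 0.716% and 0.958% of all genes. Leaving out those of day 6 gave 30, 26 and 42, beside 0.869%, 0.79% and 1.33%.

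The rule set no limit on the difference between days 1 and 3, and this was the step tested on the members. At day 3, 45 of the 119 members, 37.8%, were called higher than at day 1, beside 28.8% of all genes tested. A single member was called lower, beside 18.8% of all genes. Between days 1 and 3 the median log2 fold change was 0.47 over the members and 0.02 over all genes. With TMM scaling it was above 0 in 100 members, a share that was not taken over all genes. In plain CPM the day 3 mean was below the day 1 mean in 44 members. In this fit, with TMM scaling, the 45 members were called higher already at day 3, while 73 members were not called in either direction. Of the 45, 28 were still called with upper-quartile factors, beside 16.6% of all genes. Without day 3 replicate 2, 17 were, beside 6.17%. Part of the calls depended on the settings given below. The rule required the later levels to exceed both days, so a gene that fell steeply by day 3 could be a member only with a steeper rise by day 6. The levels of days 1 and 3 thus served in the choice, and neither the rises nor the low number of falls is independent of it.

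**Figure D4:**
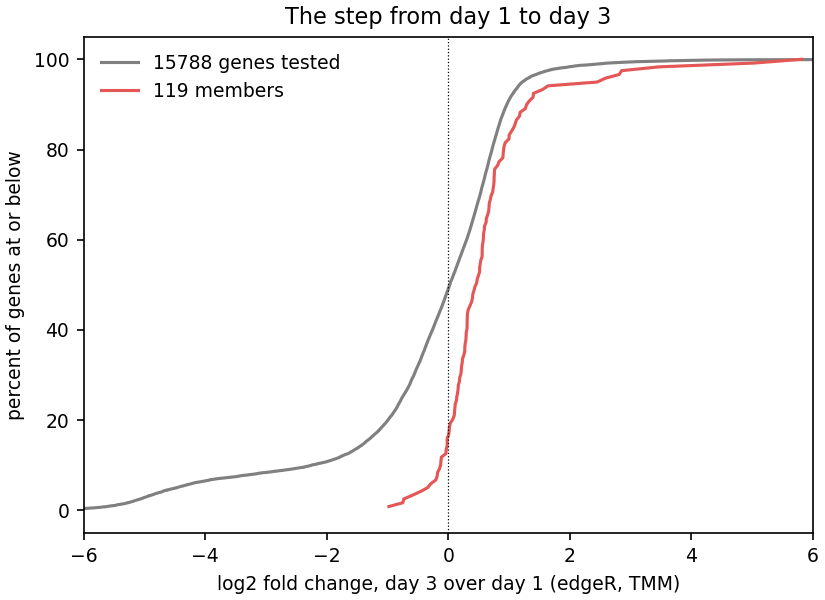
Cumulative percent of genes (y axis) at or below each log2 fold change of day 3 over day 1 (x axis, edgeR with TMM scaling) for the 119 members and all 15788 genes tested; values beyond 6 in either direction are not drawn. The members' curve lies to the right of that of all genes through most of its range, with medians of 0.47 and 0.02, and starts at -0.98.

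The number of these calls moved with the scaling. TMM factors were 1.04 to 1.09 for the day 1 libraries and 0.865 to 0.889 for those of day 3, which raises every gene at day 3. Median-of-ratios factors gave 32 members higher and 2 lower, beside 14.8% and 23.1% of all genes, and upper-quartile factors gave 28 and 5, beside 16.6% and 25.4%. The median log2 fold change of the members was 0.31 and 0.19 under these scalings, and that of all genes -0.13 and -0.26. Members with a log2 fold change above 0, 100 in the main fit, numbered 89 and 76. A scaling factor shifts every gene alike, so the difference of 0.44 between the members and all genes is the same by construction under these scalings. It was not fixed against the choice of genes. With a filter of 1 CPM in 6 libraries the medians were 0.22 and -0.06, a difference of 0.28. On the CPM that the rule used, with no further scaling factor, 49 members had every day 3 library above every day 1 library, 41.2%, beside 30% of all genes. The reverse held in 21 members, 17.6%, beside 46.9% of all genes, and 49 members overlapped.

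Of the 45 members called higher at day 3, 41 showed no overlap between the libraries of the 2 days. Call and overlap rest on the same libraries, and this share was not taken over all genes called higher. It therefore adds nothing to the calls. Within limits of no overlap and at least 10 CPM at the higher day, the largest rises were those of WBGene00037701 and WBGene00024435. WBGene00037701 stood at 19.5, 22.1 and 19.6 CPM at day 1 and at 67.4, 63.0 and 26.7 CPM at day 3. Replicate 3 of day 3 was the lowest there and lay nearer to day 1. The log2 fold change was 1.64 ± 0.31 (SE), with an edgeR adjusted p of 0.00327. Later the gene went on to 171, 190.2 and 134 CPM at day 6 and 215, 151 and 147 CPM at day 9, where the libraries of the later days overlapped.

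For WBGene00024435, with the levels given above, this log2 fold change was 1.40 ± 0.38 (SE), with an edgeR adjusted p of 0.0132. This call was lost without day 3 replicate 2, where the log2 fold change was 1.07. The largest rise among all members, 5.82 ± 0.89 (SE) with an edgeR adjusted p of 0.00157, was that of WBGene00027373, singled out after its values were seen. It stood at 0.0593, 0 and 0.0674 CPM at day 1, below the limit that 3 counts set in each library, and at 2.59, 2.42 and 1.54 CPM at day 3. Its day 6 libraries differed widely, at 3.66, 5.11 and 19.8 CPM, and those of day 9 stood at 24.7, 18.1 and 21.2 CPM.

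The member called lower at day 3 was WBGene00027596, also singled out after its values were seen. It stood at 7.98, 7.79 and 7.51 CPM at day 1 and at 2.70, 3.97 and 3.05 CPM at day 3, with no overlap. The log2 fold change was -0.98 ± 0.16 (SE), with an edgeR adjusted p of 0.00195. It then stood at 14.6, 16.6 and 13.6 CPM at day 6 and at 13.4, 14.8 and 13.2 CPM at day 9, above both earlier days and with the later days overlapping. None of the falls among members met the limits for naming, since this gene was under 10 CPM at day 1.

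Replicate 3 of day 3 tended to be the lowest day 3 library among these rises. It was the lowest day 3 library for 27 of the 45 members called higher, for 60 of all 119 members, 50.4%, and for 34.0% of the genes tested. Its median ratio to the mean of the other day 3 libraries was 0.862 over the 45 members and 1.01 over all genes tested. Without it, 39 members were called higher and 1 lower, beside 22.1% and 14.8% of all genes. Without day 3 replicate 2, 17 members were called higher and 1 lower, beside 6.17% and 15.2% of all genes. A fit of days 1, 3 and 6, tried after the data had been seen, gave 49 higher and 9 lower, beside 32.3% and 37.5% of all genes. One without only day 9 replicate 1 gave 64 and 4, beside 36.5% and 30.8%.

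The rule fixed a rise from day 3 to day 6 in each member and none from day 1 to day 3, so the sizes of these steps are a description. The day 6 mean was 1.42 to 9.95 times the day 3 mean, with a median of 2.27 times, and the day 3 mean had a median of 1.14 times the day 1 mean. On a log2 scale of mean CPM, a median of 13.3% of the difference between days 1 and 6 had been reached at day 3, with quartiles of -11.9% and 33.1%. In 44 members the day 3 mean was below the day 1 mean.

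Between days 6 and 9 the members were held together by the rule, which bounded the change from both sides, so the values of this step are a description. The day 9 mean was 0.684 to 3.25 times the day 6 mean, with a median of 1.13 times, and it was above the day 6 mean in 82 members. Without day 9 replicate 1 the median was 1.01 times and 62 members were above, and without day 6 replicate 3 these were 1.13 times and 81. The libraries of the 2 days overlapped in 88 members. The day 9 libraries lay wholly above in 26, 21.8%, beside 19.7% of all genes, and wholly below in 5, 4.20%, beside 9.83%. The edgeR test called 9 members higher and 9 lower at day 9, beside 29.3% and 15.5% of all genes. With upper-quartile factors the split was 14 and 3, beside 35.5% and 9.94% of all genes, and with median-of-ratios factors 8 and 11, beside 28.8% and 12.6%. With all libraries DESeq2 called 9 higher and 15 lower, beside 31.2% and 15.3%. With only days 6 and 9 in the fit edgeR called 0 members and 66 of 13956 genes. In that fit 12 members had an unadjusted p under 0.05, 9 higher and 3 lower, as did 4560 genes, 3080 higher and 1480 lower.

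Without day 9 replicate 1 the split was 14 and 39, beside 42.4% and 33.7% of all genes, so both directions were called more often there over all genes too. It was 7 and 5 without replicate 2 of day 9, beside 13.9% and 7.56%, and 7 and 2 without replicate 3, beside 13.7% and 7.4%. Without replicate 1 of day 6 it was 4 and 3, beside 9.1% and 6.11%, and without replicate 2 also 4 and 3, beside 10.5% and 6.44%. Without replicate 3 of day 6 it was 8 and 10, beside 22.1% and 11.4%.

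Among members with at least 10 CPM at day 6 and all day 9 libraries above those of day 6, the largest ratios of day 9 to day 6 were those of WBGene00088579 and WBGene00029381. WBGene00088579 stood at 11.5, 10.7 and 9.34 CPM at day 6 and at 68.9, 16.5 and 12.7 CPM at day 9, so its mean ratio of 3.12 came largely from replicate 1. WBGene00029381 stood at 30.8, 29.0 and 14.8 CPM at day 6 and at 103.8, 58.2 and 53.9 CPM at day 9, a ratio of 2.89. For the first gene the lowest day 9 library, 12.7 CPM, lay just above the highest of day 6, 11.5 CPM. For the second these were 53.9 and 30.8 CPM. Both genes had overlapping levels at days 1 and 3, at 2.63 to 3.85 CPM for WBGene00088579 and 6.86 to 9.26 CPM for WBGene00029381.

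In 5 members the level had come down by day 9 in every library while staying above days 1 and 3. By the rule for naming, the lowest ratios of day 9 to day 6 were those of WBGene00042085 and WBGene00035684. WBGene00042085 stood at 14.0, 12.5 and 13.8 CPM at day 1, 14.5, 16.6 and 15.5 CPM at day 3, 50.5, 52.6 and 47.5 CPM at day 6 and 31.3, 37.2 and 39.1 CPM at day 9. WBGene00035684 stood at 9.22, 12.2 and 9.80 CPM at day 1, 22.2, 22.1 and 23.3 CPM at day 3, 44.1, 46.7 and 45.3 CPM at day 6 and 31.0, 38.9 and 33.9 CPM at day 9. The 4 days did not overlap for either gene, and the order of the days was the same in both: day 1, day 3, day 9 and day 6. The others, named after their values were seen, were WBGene00026289, WBGene00025650 and WBGene00038267, with day 9 means of 0.802, 0.711 and 0.834 times those of day 6.

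Day 9 replicate 1 stood apart within the members as it did over all genes. It lay above replicates 2 and 3 in 75 members, 63.0%, beside 38% of all genes tested, and below both in 29, 24.4%, beside 56.3%. In 20 members, 16.8%, it was at least 2 times the higher of the others, beside 7.35% of all genes. The rule required each day 9 library to lie above days 1 and 3, so genes whose replicate 1 fell to the levels of those days could not be members. Its level was a median of 1.30 times the day 6 mean, against 1.01 for the mean of replicates 2 and 3. The widest difference, singled out after its values were seen, was that of WBGene00033122, at 74.8 CPM in replicate 1 and 5.77 and 6.00 CPM in replicates 2 and 3. Its day 6 libraries also differed, at 20.2, 22.4 and 6.05 CPM, and its levels at days 1 and 3 were 1.51 to 2.96 CPM.

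Each library was left out of the choice in turn, and its place was then read for the genes chosen on the other 11. Other libraries of the same day helped to choose these genes, so high shares were likely beforehand. The same shares over all genes were not taken, and nothing is read from them. A left-out library of day 1 lay below the later days in 99.2% to 100% of 124 to 127 genes. Left-out libraries of day 3 did so in 98.5%, 99.2% and 93.7%, the last being replicate 3. Day 6 replicates 1 and 2 lay above the earlier days in 98.5% and 100%, and replicate 3 in 148 of 170 genes, 87.1%. Day 9 replicates 2 and 3 did so in 99.2% and 97.7%, and replicate 1 in 118 of 138 genes, 85.5%. The full gap of 1.25 was met by day 6 replicate 3 in 67.1% and by day 9 replicate 1 in 79.0% of the genes chosen without them. Of the 119 members, 109 were chosen again when day 6 replicate 3 was left out and 108 when day 9 replicate 1 was. Each of the other 10 libraries, left out, kept 117 to 119. Leaving out a library can only loosen the limits on the gap and on the lowest level. Members could thus be lost only through the limits between days 6 and 9, so the numbers kept follow largely from the rule. For libraries of days 1 and 3, keeping all 119 was fixed in advance.

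To see how far a level raised at day 6 was still raised at day 9, genes were also chosen on days 1, 3 and 6 alone, with the same gap and limits on level. These numbered 411 and included the 119 members. Their day 9 level was above the highest library of days 1 and 3 in replicate 1 for 310 genes, 75.4%, in replicate 2 for 278, 67.6%, and in replicate 3 for 264, 64.2%. Over all genes tested, these shares were 32.9%, 37.8% and 39.4%. All 3 day 9 libraries were above for 210 genes, 51.1%, beside 9.32% of all genes tested, and none of them for 44. Replicate 1 alone was above for 78 genes, and replicates 2 and 3 without replicate 1 for 43. Replicates 2 and 3 were both above for 253 genes, 61.6%, beside 33.6% of all genes tested. Against their day 6 mean, the day 9 levels of the 411 genes had medians of 0.813, 0.672 and 0.606 times in replicates 1, 2 and 3. Day 6 served to choose these genes, so a lower level at day 9 is not independent of the choice. With a gap of 2, the share with all 3 above was 59.6% of 104 genes, and these medians were 0.599, 0.442 and 0.404 times. Day 6 replicate 3 decided much of this choice. Without it, a setting tried after the data had been seen, 889 genes were chosen, and all 3 day 9 libraries were above for 330 of them, 37.1%. Replicates 1, 2 and 3 of day 9 were then above in 75.6%, 52.1% and 49.8%. The libraries of days 1 and 3 served both to choose the genes and to read day 9, so no test is given.

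**Figure D5:**
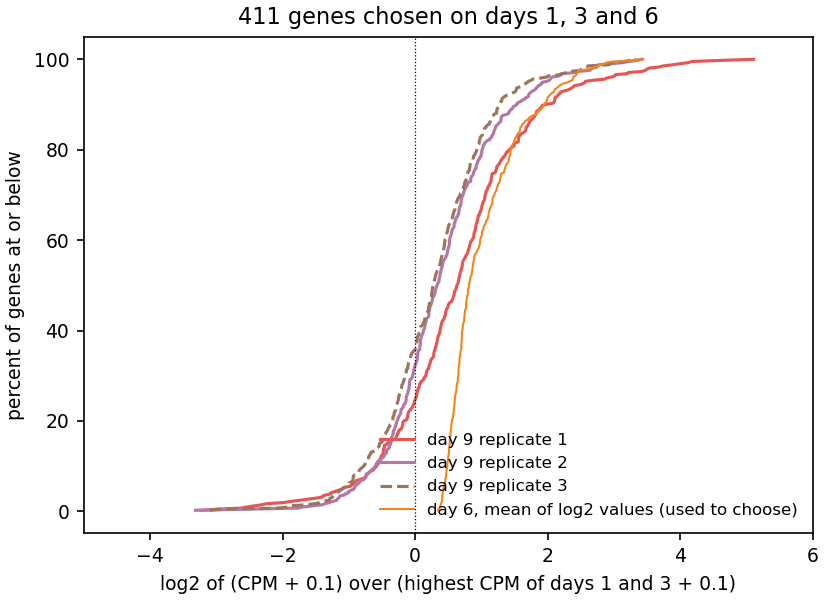
Cumulative percent (y axis) of the 411 genes chosen on days 1, 3 and 6 at or below each log2 ratio (x axis) of their CPM to their highest CPM of days 1 and 3, with 0.1 CPM added to both. Separate lines show each day 9 library, which had no part in the choice, and the mean of the log2 ratios of the 3 day 6 libraries, which chose them. At 0 the lines of day 9 replicates 1, 2 and 3 leave 75.4%, 67.6% and 64.2% of the genes to the right.

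The limits that compare day 9 with day 6 removed few of the genes that met the gap over all libraries. The gap itself also used day 9. On days 1, 3 and 6 alone, 411 genes met it together with the limits on level. In all 10509 genes had at least 1 CPM in each library of days 6 and 9, and 143 of these met the gap. The limit on a further rise at day 9 removed 5 of them, leaving 138, and the limit on a fall removed 19, leaving 119. The mean level limit removed 0. The count of members depended on the scaling of the counts: 75 genes met the rule with TMM factors, 66 of them members, and 73 with median-of-ratios factors, 68 of them members. TMM factors were 0.865 to 0.889 for the day 3 libraries and 1.06 to 1.13 for those of day 9, which raises the first and lowers the second relative to plain CPM.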

How the data were processed

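RNA of whole hermaphrodites was extracted with Trizol and prepared with a TruSeq RNA v2 kit, per the labels' protocols. The deposited table gives the authors' raw counts for each gene, without normalisation, in 1 column for each of 12 libraries. STAR, featureCounts and MultiQC were used, per the submitters' processing notes; not given in the sources used here are versions, build, annotation and strand, so genes that share reads with near-identical or overlapping genes are uncertain. Columns were assigned to day and replicate from the titles and descriptions. The labels do not say that replicates were separate cultures, so the spread behind each p-value is that between these samples and may be technical.

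The members and lists were chosen with earlier results of these data known. CPM for the rule used column totals over all genes. Tests used edgeR 4.0.16 in R 4.3.3: filterByExpr by day (15788 of 23169 genes), TMM factors, 1 mean per day over all 12 libraries, robust quasi-likelihood with 8 residual degrees of freedom, and Benjamini-Hochberg adjustment over all tested genes. The SE is the log2 fold change divided by the square root of F. Day 9 was the most variable day and shares its spread with the others. A limit of 3 counts and chi-square values cover counting error only.

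Up to 2 identifiers were named per class: called higher or lower at day 3, with no overlap and at least 10 CPM; highest mean; largest gap with at least 10 CPM in each later library; and day 9 wholly above or below day 6 with a day 6 mean of at least 10 CPM. Other named genes are marked as chosen after their values were seen. Gene lists and tissue markers needed gene names and were not run. Alternatives were median-of-ratios and upper-quartile factors, other low-count filters, DESeq2 1.42.0, limma-voom (limma 3.58.1), the replicate number as a block, fits limited to the days compared, a threshold of 0.01, other limits in the rule, and each library left out in turn.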

Additional observations from a re-analysis of the deposited data

How the results depend on the processing

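The member count of 119 was 75 with TMM factors, 73 with median-of-ratios factors, 54 and 18 with gaps of 1.5 and 2, and 422 with a gap of 1. Leaving out single libraries gave 124 to 170. Members called higher at day 3 numbered 45, beside 28.8% of all genes. This was 28 with upper-quartile factors, beside 16.6%, and 26 with no low-count filter, beside 9.09%. It was 27 with a filter of 1 CPM in 6 libraries, beside 18%, and 27 at an adjusted p under 0.01, beside 15.4%. With single libraries of the days left out it was 17 to 39, beside 6.17% to 22.2%. Members called lower at day 3 numbered 1, beside 18.8% of all genes. With DESeq2, median-of-ratios factors or no filter there were 2, beside 26.2%, 23.1% and 18.7%. Upper-quartile factors and the stricter filter each gave 5, beside 25.4% and 22.6%, and only the days compared gave 11, beside 40.2%. Added after seeing the data, fits without day 9 and without day 9 replicate 1 gave 9 and 4, beside 37.5% and 30.8%. Single libraries left out gave 1 to 1, beside 13% to 15.2%. The members' median log2 fold change at day 3 over day 1 (0.47) was 0.32 with DESeq2, 0.31 with median-of-ratios factors, 0.19 with upper-quartile factors, 0.22 with the stricter filter, 0.21 with none, 0.26 with only the days compared and 0.29 without day 9. It was 0.24 to 0.47 with single libraries left out.

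For day 9 against day 6, 9 members were called higher and 9 lower, beside 29.3% and 15.5% of all genes. Upper-quartile factors gave 14 and 3, beside 35.5% and 9.94%, and only these days gave 0 and 0, beside 0.179% and 0.294%. At an adjusted p under 0.01 there were 3 and 1, beside 5.17% and 4.85%. DESeq2 gave 15 lower, beside 15.3%, and no filter 5 lower, beside 9.89%. Single libraries left out gave 4 to 14 higher and 2 to 39 lower, beside 9.1% to 42.4% and 6.11% to 33.7%. The highest were those without day 9 replicate 1. For day 6 against day 3, 55 members were called higher, beside 1.43% of all genes. DESeq2 gave 89, only these days 113 and no day 9 library 117, beside 3.53%, 7.55% and 7.59%. At an adjusted p under 0.01 there were 14, beside 0.5%, and single libraries left out gave 18 to 42, beside 0.514% to 1.33%. The 118 calls of days 6 and 9 against days 1 and 3 were 109 to 119 with single libraries left out, beside 3.28% to 14.5%. The 51.1% of genes chosen without day 9 that had all 3 day 9 libraries above days 1 and 3 was 41.9% with TMM factors, 59.6% with a gap of 2 and, added after seeing the data, 37.1% without day 6 replicate 3. The cause of these differences was not tested.

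Replicate numbers were not taken to pair the samples, since not every pair correlated: deviations of same-numbered libraries correlated from -0.35 to 0.48 with a median of 0.10, against a median of -0.07 for different numbers. As a hint from the data and not the design, 8 of 12 libraries correlated best with their own number. With the replicate block 43 members were called higher and 1 lower at day 3, beside 27.6% and 18.3% of all genes. From day 3 to day 6, 38 were called higher, beside 0.887%. The day 9 calls against day 6 were 9 higher and 9 lower, beside 24.8% and 14.8%. For the later against the earlier days 115 were called higher, beside 4.42%.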

Other observations

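The members WBGene00024987 and WBGene00024988, whose identifiers are consecutive, moved alike across the libraries at levels about 3 times apart. This pair was chosen after the values were seen. WBGene00024987 stood at 37.4 to 38.7 CPM at day 1, 27.4 to 30.3 CPM at day 3, 51.3 to 65.5 CPM at day 6 and 166, 53.5 and 52.6 CPM at day 9. WBGene00024988 stood at 102 to 104 CPM at day 1, 77.3 to 91.2 CPM at day 3, 201 to 240 CPM at day 6 and 527, 168 and 155 CPM at day 9. In both genes day 3 lay below day 1 in CPM, though edgeR called neither difference with TMM scaling (log2 fold changes of -0.13 and -0.02), day 6 lay above day 1, and day 9 replicate 1 stood above 3 times the mean of replicates 2 and 3, at 3.14 and 3.26 times. Whether they neighbour each other in the genome was not analysed here. Other members with consecutive identifiers included WBGene00037931 and WBGene00037932, of which only the first was called higher at day 3 than at day 1. In WBGene00038267 all day 9 libraries lay below those of day 6, with a mean ratio of 0.834. In WBGene00038268 the libraries of these days overlapped, with a mean ratio of 0.973.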
